A study of Mus musculus with 10 samples.

Results

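Tumour fibroblasts were compared with the cells labelled TEC from the same kind of mouse mammary tumour, over 12394 genes measured on 5 of the 10 arrays of the series. The 5 arrays are the 3 titled CAF and the 2 titled TEC. Each gene was represented by 1 probe set, the one with a single gene symbol and the highest mean over all 10 arrays, out of 22690 probe sets. All mice were of the strain FVB/N. The CAF and TEC cells were sorted from mammary gland tumours of the genotype written WAPCre-DNbcatn;HGF in the labels, in which a WAP promoter, active in mammary epithelium, drives the Cre. The other 5 arrays hold 3 samples of fibroblasts from wild-type control glands (COF) and 2 samples of CSC cells from the same tumour genotype. They share the estimate of the spread behind every SE, interval and adjusted p of the main fit. Their values are given mainly where they place a level. The labels spell the sorted cells of the TEC arrays both as TECs and as TEFs, do not expand TEC, give no sorting markers and do not say whether the arrays of a group come from separate mice. The p-values therefore measure only the spread between arrays of the same group, which may be technical.

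Fibroblasts of a mammary tumour make the collagens, proteoglycans and cross-linking enzymes of its matrix, and they secrete growth factors and chemokines that act on neighbouring cells. Mammary epithelium is held together by E-cadherin, claudins and desmosomes and is built of keratin-expressing luminal and basal layers. Neutrophils, macrophages and antigen-presenting cells also enter such tumours, and each kind carries genes that fibroblasts hardly use. Met is the receptor of HGF, and beta-catenin carries the Wnt signal into the nucleus, and the genotype of these mice names both HGF and a form of catenin.

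Values are RMA log2 intensities, a difference is the CAF mean minus the TEC mean on that scale, and a gene passed where limma's adjusted p was under 0.05. Of the 12394 genes, 8364 passed (67.5%), 4787 of them higher in CAF (38.6%) and 3577 lower (28.9%). The counts of each gene list below are to be read against these shares. All CAF arrays were above both TEC arrays in 5759 genes and below both in 4297, so groups that did not overlap were the common case. The median difference over all genes was 0.12. A difference of at least 1, that is at least a doubling, was found in 3586 of the passing genes, and one of at least 3 in 274 higher and 410 lower genes. The medians of the 10 arrays lay between 6.89 and 7.02. The 3 CAF arrays resembled each other closely, with a standard deviation of gene differences of 0.14 to 0.22 between any pair. The TEC arrays differed from each other by 0.55, against 1.53 to 1.58 between CAF and TEC replicate 1 and 1.23 to 1.29 between CAF and TEC replicate 2. The difference between 3' and 5' probe sets, a sign of RNA integrity, was 0.59 to 0.61 for Actb on the CAF arrays and 0.32 and 0.46 on the TEC arrays, and for Gapdh it was 0.06 to 0.15 and 0.26 and 0.24. The part of RNA integrity in the results was not tested.

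Marker lists of leukocytes, other than that of T and NK cells, and of epithelium were higher on the TEC arrays than on the CAF arrays. That of fibroblasts was lower. The T and NK median was 5.96, 5.98 and 6.62 on the CAF arrays and 6.41 and 6.62 on the TEC arrays. Over the 15 genes of the pan-leukocyte list the median level was 12.46 and 11.94 on the TEC arrays, 5.77, 5.69 and 7.11 on the CAF arrays, and 10.25 and 9.25 on the CSC arrays. Over the 20 pan-epithelial genes it was 8.91 and 9.30 on the TEC arrays, between 6.33 and 6.71 on the CAF arrays, and 11.17 and 11.15 on the CSC arrays. The median of the 22 pan-fibroblast genes was 13.24, 13.20 and 13.18 on the CAF arrays and 8.82 and 11.34 on the TEC arrays. So the CAF label went with its markers on all 3 arrays, whereas the TEC arrays lay between CAF and CSC in the pan-epithelial list and above both in the pan-leukocyte list. Against the control fibroblasts, the CAF arrays were higher in the milk list (8.80 to 9.31 against 5.90 to 6.61). They were also higher in the granulocyte list (6.27 to 6.56 against 5.20 to 5.22). In bulk RNA of this kind, fewer cells of a type and less RNA of that type per cell cannot be told apart.

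**Figure D1:**
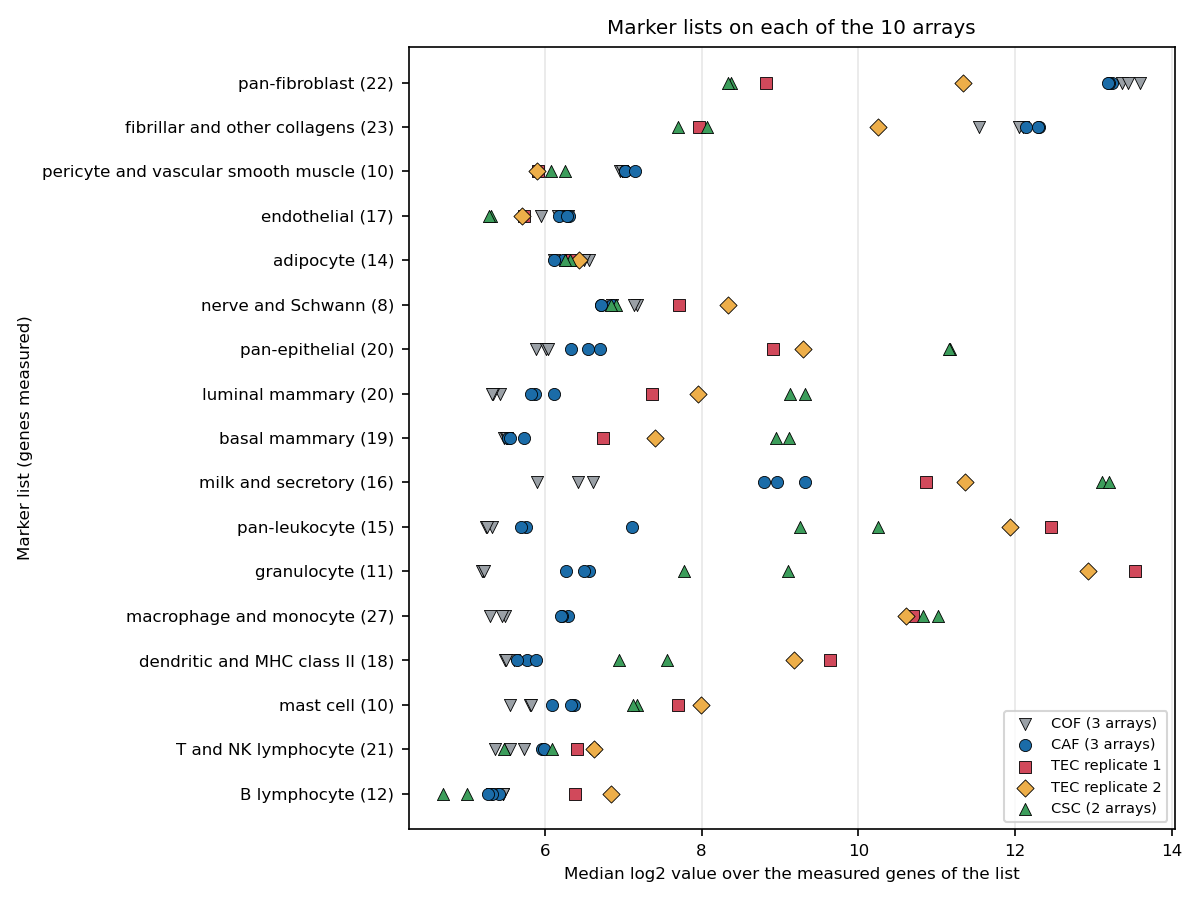
Median log2 value (x axis) over the measured genes of 17 marker lists (y axis, number of genes in brackets), with 1 point for each of the 10 arrays. The TEC arrays stand furthest to the right for pan-leukocyte genes (12.46 and 11.94), between CAF and CSC for pan-epithelial genes (8.91 and 9.30), and apart from each other for pan-fibroblast genes (8.82 and 11.34).

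The 20 greatest decreases of the comparison are described gene by gene, since only 4 of them stand on any of the lists. Slfn4, a schlafen gene of myeloid cells, had values of 3.12, 3.28 and 3.64 on the CAF arrays and of 13.60 and 13.25 on the TEC arrays. The 2 groups were far apart, and all 3 CAF values lay below the lower quartile of their arrays. Its difference was -10.08 (SE 0.37, adjusted p 1.03e-07). Clec4e, a C-type lectin that senses microbes and dying cells, fell by 9.54 on the log2 scale, and Chil3, a chitinase-like protein of activated macrophages and neutrophils, fell by 9.25. Il1b, which encodes the inflammatory cytokine interleukin-1 beta, had values of 5.78, 5.61 and 5.88 on the CAF arrays and of 14.35 and 14.10 on the TEC arrays. It fell by 8.47 (SE 0.24). Other genes among the 20 greatest decreases were the lectins Clec4d (-8.09) and Clec4n (-7.70), Acod1 (-8.08), which makes itaconate in activated macrophages, the neutrophil surface protein Cd177 (-7.89), the formyl peptide receptor Fpr2 (-7.78), and Ccr1 (-7.58), a receptor of inflammatory chemokines. Ifitm6, Cyp4f18, Ms4a6d, Samsn1, Stfa3, Wfdc21, Ccl3, Lcp1, Ngp and S100a9 completed the 20, with differences between -8.36 and -7.09. In these 10 genes the TEC arrays were also above both CSC arrays. The part of leukocyte RNA on the TEC arrays in the other differences was not tested.

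All 11 measured genes of the granulocyte list were lower in CAF, with a median difference of -6.17. Ngp, neutrophilic granule protein, was 5.74, 5.61 and 6.11 on the CAF arrays and 14.39 and 13.95 on the TEC arrays, and its difference was -8.35 (SE 0.20, adjusted p 2.79e-08). S100a8 and S100a9 encode the subunits of the calprotectin that fills neutrophil cytosol. S100a8 fell by 6.27. S100a9 was 6.99, 6.86 and 8.74 on the CAF arrays and 14.86 and 14.65 on the TEC arrays. The third CAF array was the highest of its group in S100a9 but stayed well below both TEC arrays, and the difference was -7.22 (SE 0.57). The granule enzymes Mpo (-6.17), Elane (-4.62) and Mmp8 (-5.48), the antimicrobial peptide gene Camp (-6.28), and the receptors Csf3r (-6.93) and Cxcr2 (-5.63) fell with them. On the CSC arrays the median of the list was 9.10 and 7.77, below the 13.53 and 12.93 of the TEC arrays.

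Genes of the common leukocyte machinery were lower in CAF in 14 of 15 cases, with a median difference of -5.48. Ptprc, which encodes the leukocyte surface protein CD45, was 7.04, 7.35 and 8.88 on the CAF arrays and 13.38 and 13.09 on the TEC arrays. The groups did not overlap, and the difference was -5.48 (SE 0.55, adjusted p 3.11e-05). Itgb2, the shared subunit of the leukocyte integrins, fell by 6.78, and Lcp1, an actin bundler of blood cells, by 7.09. CAF replicate 3 was the highest CAF array in leukocyte genes: its median over the list was 7.11 against 5.77 and 5.69, and Coro1a read 5.69, 5.98 and 7.44. With CAF replicate 3 left out, Ptprc differed by -6.04.

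Macrophage and monocyte genes were lower in CAF in 25 of 27 cases, with a median difference of -4.63. Csf1r, the receptor on which macrophages depend, was 8.29, 8.12 and 8.37 on the CAF arrays and 12.73 and 12.40 on the TEC arrays, a difference of -4.30 (SE 0.27). Its mean on the CSC arrays was 12.39. The median of the list was 10.69 and 10.61 on the TEC arrays and 11.02 and 10.83 on the CSC arrays. This median, unlike that of the pan-leukocyte list, was thus slightly higher on the CSC arrays, but single members were divided. The mean of Cd14 was 14.52 on the TEC arrays and 13.72 on the CSC arrays, and that of Adgre1 was 9.30 and 9.81. Mrc1, the mannose receptor of tissue macrophages, fell by 6.91, Itgam, a subunit of the integrin Mac-1, by 6.23, and Spi1, the transcription factor PU.1 that specifies myeloid cells, by 3.73. GAGGAAGT, a core site of PU.1, was searched on both strands of the RefSeq promoter windows described below and found in 2 of the 19 genes of the list with a window (10.5%), against 3.69% of all genes, and on the strand of the gene alone in 0 of 19, against 2.12%. The complement genes C1qa, C1qb and C1qc, which tissue macrophages make, fell by 4.64, 4.96 and 3.88, and their means were higher on the CSC arrays than on the TEC arrays (12.66 against 11.05 for C1qa). Adgre1, which encodes a surface receptor that marks mouse macrophages, fell by 3.70 and the lysozyme gene Lyz2 by 5.18. Of the remaining genes 1 did not pass. Marco was higher in CAF by 0.48 (0.30, adjusted p 0.0784, without TEC replicate 2), and its values of 5.19, 4.95 and 4.91 against 4.72 and 4.35 were all below the lower quartile of their arrays.

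All 18 genes of the list for dendritic cells and MHC class II were lower in CAF, by a median of -4.05. H2-Aa, a chain of the class II molecule that presents peptides to T cells, was 7.19, 7.02 and 7.54 on the CAF arrays and 13.80 and 13.73 on the TEC arrays. Its difference was -6.52 (SE 0.16, adjusted p 2.79e-08). The invariant chain Cd74 fell by 5.38, the costimulatory molecules Cd86 and Cd80 by 5.90 and 3.07, and Ccr7, the receptor that guides dendritic cells to lymph nodes, by 5.62. Of 10 mast cell genes 9 were lower in CAF, with a median difference of -1.17. They were led by Hdc, the enzyme that makes histamine (-6.53), and Kit (-4.03), which luminal epithelium also uses. The mast cell protease genes Cma1 (-1.30) and Mcpt4 (-0.86) differed by far less. The mast cell carboxypeptidase gene Cpa3 was 8.69, 7.72 and 8.85 on the CAF arrays and 9.34 and 10.11 on the TEC arrays, and its difference of -1.31 no longer passed without TEC replicate 2 (-0.92, adjusted p 0.0507).

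Lymphocyte genes were divided. Of 21 genes of T and NK cells 5 were higher in CAF, 7 were lower and 9 did not pass, and without TEC replicate 1 the lower genes numbered 4. Thy1, which also stands on the pan-fibroblast list, was among the 5 higher genes (2.96). Il7r, the interleukin-7 receptor, fell by 4.01. Cd3e, a chain of the T cell receptor complex, was 8.06, 7.92 and 8.15 on the CAF arrays and 6.78 and 6.84 on the TEC arrays, whereas Cd3d was 6.48, 6.58 and 7.34 against 8.71 and 7.45. These chains belong to 1 complex and differed in opposite directions, by 1.24 and -1.28, and Cd3d no longer passed without TEC replicate 1 (-0.65, adjusted p 0.0943). Of 12 B cell genes 7 were lower in CAF and 2 higher. Cd79a, a chain of the B cell receptor, did not pass (-0.27) but was lower in CAF without TEC replicate 1 (-0.54, adjusted p 0.0218). Ms4a1, which encodes the B cell antigen CD20, fell by 2.78, and Jchain, which joins secreted antibody into polymers, was 7.76, 8.35 and 8.52 on the CAF arrays and 12.61 and 13.76 on the TEC arrays. Ebf1, a B cell factor that fibroblasts also express, was higher in CAF by 3.46.

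Epithelial genes were lower in CAF in 19 of 20 cases, with a median difference of -2.86, smaller in size than that of the granulocyte list (-6.17) or the pan-leukocyte list (-5.48). Epcam, an epithelial adhesion molecule, was 7.74, 8.14 and 8.23 on the CAF arrays and 10.70 and 11.39 on the TEC arrays, with a mean of 13.44 on the CSC arrays. It differed by -3.0 (SE 0.34, adjusted p 6.53e-05). Cdh1, which encodes E-cadherin, read 6.25, 6.80 and 7.10 against 9.95 and 10.56 and fell by 3.54. The keratins of simple epithelium followed: Krt8 fell by 2.82, Krt18 by 3.05, Krt19 by 2.96 and Krt7 by 3.21. Esrp1, a splicing regulator of epithelial cells, fell by 3.40, and Spint2, an inhibitor of epithelial serine proteases, by 2.71. Cd24a, a surface protein of luminal cells and of many leukocytes, fell by 5.15. In every one of these genes both TEC arrays were above all 3 CAF arrays, and TEC replicate 2 was the higher TEC array.

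The promoters of these epithelial genes were examined for a short sequence. CACCTG, the E-box that repressors of the Snail and Zeb families bind, was searched on both strands in windows of 250 bases before to 50 after the transcription start, taken from RefSeq (build GRCm38.p6). It was present in 11 of the 12 pan-epithelial genes with a window (91.7%), against 22.6% of all 27025 genes with one. On the strand of the gene alone the shares were 66.7% and 11.8%. In the list of tight junctions and desmosomes, which shares members with the pan-epithelial list, it was found in 9 of 12 genes, and among the pan-fibroblast genes in 2 of 13. Lists of other cells were also above the share of all genes, with 6 of 9 B lymphocyte genes and 7 of 13 T and NK lymphocyte genes, and the list of epithelial and mesenchymal regulators stood at 3 of 12. A match is a description of the sequence and not of a bound site. The windows of Epcam (chr17:87635729-87636028, plus strand), Cldn4 (chr5:134946885-134947184, minus strand) and Spint2 (chr7:29281928-29282227, minus strand) are shown to let the position of the matches be seen, with CACCTG or its complement CAGGTG in capitals, and they were picked after the matches were known.
Epcam: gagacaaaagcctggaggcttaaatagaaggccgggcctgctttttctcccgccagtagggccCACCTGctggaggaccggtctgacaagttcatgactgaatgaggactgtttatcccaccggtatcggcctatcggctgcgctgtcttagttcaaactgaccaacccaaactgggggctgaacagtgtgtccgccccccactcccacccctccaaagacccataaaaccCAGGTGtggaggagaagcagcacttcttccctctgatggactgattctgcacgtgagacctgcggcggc
Cldn4: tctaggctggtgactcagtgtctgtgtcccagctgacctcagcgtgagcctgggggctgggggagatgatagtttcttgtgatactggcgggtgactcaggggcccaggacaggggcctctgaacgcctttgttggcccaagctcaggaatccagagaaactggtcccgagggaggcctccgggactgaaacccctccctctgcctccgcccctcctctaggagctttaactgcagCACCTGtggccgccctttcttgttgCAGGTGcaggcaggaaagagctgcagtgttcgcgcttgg
Spint2: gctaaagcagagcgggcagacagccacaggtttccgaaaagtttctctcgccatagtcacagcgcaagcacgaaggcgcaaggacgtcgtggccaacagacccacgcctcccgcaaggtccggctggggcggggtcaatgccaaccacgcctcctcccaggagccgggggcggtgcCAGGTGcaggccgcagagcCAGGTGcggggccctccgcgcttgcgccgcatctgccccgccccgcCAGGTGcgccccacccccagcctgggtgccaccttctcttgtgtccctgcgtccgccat
Epcam and Cldn4 held 2 matches each and Spint2 held 3. Cldn4, a tight junction claudin, was 7.61, 7.83 and 8.32 on the CAF arrays and 10.54 and 11.32 on the TEC arrays, and Spint2 was 7.39, 7.34 and 7.45 against 9.97 and 10.23. Among genes of the Snail and Zeb families, Snai2 (1.83) and Zeb1 (0.83) were higher in CAF, although the other probe set of Zeb1 differed by -0.24. Twist1 (3.14), Twist2 (3.28) and Prrx1 (3.52), which belong to other families, were also higher. The epithelial regulators Grhl2 (-0.98), Ovol1 (-2.79), Elf5 (-2.59) and Ehf (-2.59) were lower. Of that list of 22 regulators 11 were higher in CAF and 10 lower, and Zeb2 did not pass (-0.05).

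Genes of both layers of the mammary duct were mostly lower in CAF. Of 20 luminal genes 13 were lower in CAF and 4 higher (2 without CAF replicate 2), and of 19 basal genes 10 were lower and 4 higher. Krt5, a keratin of basal cells, was 6.62, 6.55 and 6.67 on the CAF arrays and 7.97 and 9.0 on the TEC arrays, a difference of -1.87 (SE 0.26). Krt14, its partner, fell by 2.46, Krt17 by 3.66 and Trp63, the transcription factor of basal epithelium, by 2.49, and Itga6, an integrin that anchors basal cells, by 1.58. Gata3 and Elf5, factors of the luminal lineage, fell by 2.51 and 2.59. The greatest decrease of the luminal list was that of Cd14 (-4.58), which is also a monocyte gene. Tnfsf11, which encodes RANKL and is made by luminal cells of the normal gland, went the other way: it was 9.27, 9.28 and 9.18 on the CAF arrays and 3.99 and 5.07 on the TEC arrays, a difference of 4.71 (SE 0.36, adjusted p 5.68e-06). Its mean was 4.38 on the arrays of control fibroblasts and 3.47 on those of CSC, so the 3 CAF arrays stood apart from all 7 others.

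Milk genes were lower in CAF in 12 of 16 cases, with a median difference of -2.56. The greatest decrease of the list (-4.33) was that of a gene that also stands on the granulocyte list. Wap, the whey protein whose promoter drives the Cre, was 8.75, 8.67 and 8.91 on the CAF arrays and 11.77 and 12.18 on the TEC arrays and differed by -3.19 (SE 0.14). Csn2, which encodes beta-casein, was 11.72, 11.95 and 11.87 against 13.94 and 14.05. The groups did not overlap, but the control fibroblasts, which share the variance estimate, spread from 5.84 to 9.95, and the difference of -2.15 had an adjusted p of 0.0594. It passed with only the CAF and TEC arrays in the fit (adjusted p 9.27e-05). Of 22 genes of tight junctions and desmosomes 21 were lower in CAF, among them Ocln (-3.07), Marveld2 (-2.87), Dsg2 (-3.05), Pkp1 (-3.20) and Dsp (-3.07). Tjp1, a scaffold that fibroblasts also use, was higher in CAF by 1.16.

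**Figure D2:**
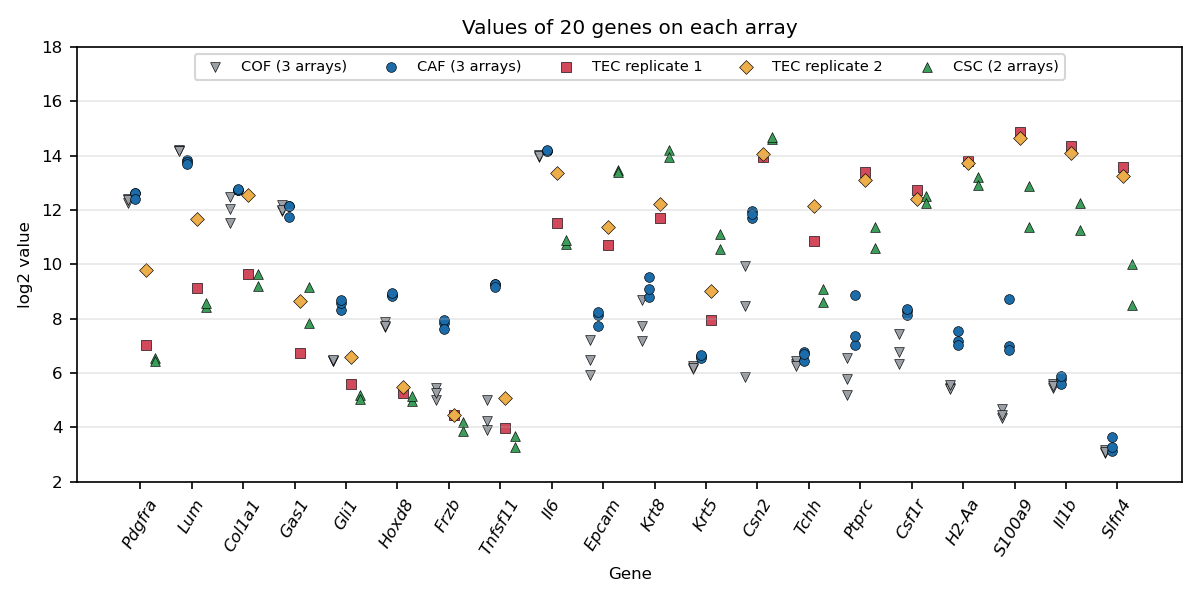
Log2 value (y axis) of 20 genes (x axis) on each of the 10 arrays, with the TEC arrays drawn as separate symbols. Pdgfra, Lum and Gas1 are highest on the fibroblast arrays with TEC replicate 2 above replicate 1, Epcam and Krt8 are intermediate on the TEC arrays, and S100a9, Il1b and Slfn4 are highest there.

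Fibroblast genes were higher in CAF in 20 of 22 cases, with a median difference of 2.96. Pdgfra, the platelet-derived growth factor receptor that marks fibroblasts, was 12.62, 12.62 and 12.40 on the CAF arrays and 7.02 and 9.80 on the TEC arrays. Neither TEC array reached the CAF values, TEC replicate 1 lay near the CSC mean of 6.49, and the difference was 4.14 (SE 0.61, adjusted p 2.82e-04), or 17.6-fold. Pdgfrb rose by 4.02 in the same way, from 5.65 and 8.77 on the TEC arrays. Lum, which encodes the collagen-binding proteoglycan lumican, was 13.84, 13.77 and 13.69 against 9.13 and 11.68, and Dcn, which encodes decorin, was 14.58, 14.57 and 14.58 against 11.06 and 13.39. They rose by 3.36 and 2.35. Vim, which encodes the intermediate filament protein vimentin of stromal cells and leukocytes alike, rose by 0.51. Fbln1 (3.87), Mmp2 (3.74), Dpt (3.38) and Thy1 (2.96) were also higher in CAF.

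The size of these differences depended on the TEC array. TEC replicate 2 was above replicate 1 in 22 of 22 pan-fibroblast genes. The median difference of the list was 4.31 against TEC replicate 1 alone and 1.70 against replicate 2 alone. On the linear scale the median TEC level was 5.06% of the CAF mean on replicate 1 and 30.9% on replicate 2. In no gene of the list did the CAF and TEC arrays overlap, but in most of all 12394 genes they did not overlap either. The part of fibroblast RNA on TEC replicate 2 in these differences was not tested.

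Collagen genes were higher in CAF in 19 of 23 cases and none was lower, with a median difference of 2.25. The chains of collagen VI, which forms beaded filaments around cells, rose by 2.95 (Col6a1), 2.96 (Col6a2) and 2.24 (Col6a3), those of the basement membrane collagen IV by 2.80 (Col4a1) and 3.07 (Col4a2), and Col14a1, which ties fibrils together, by 3.56. Among the 4 collagens that did not pass were those most abundant in connective tissue, Col1a1 and Col3a1, each on its probe set of highest mean. Their other probe sets differed by 2.52 and 2.60. When every probe set was tested, 1 of 2 passed as higher in CAF for each gene. On the probe set of highest mean, Col1a1 was 12.72, 12.73 and 12.76 on the CAF arrays and 9.63 and 12.55 on the TEC arrays. Col3a1 was 14.66, 14.66 and 14.67 against 12.96 and 14.60. TEC replicate 2 thus came within 0.18 and 0.06 of the CAF mean on these 2 probe sets and replicate 1 did not. Their differences were 1.64 and 0.89, with adjusted p of 0.0544 and 0.0545. Without TEC replicate 2 both passed, at 3.11 and 1.71 (adjusted p 3.67e-05 and 1.29e-06). Col1a2 was 14.74, 14.76 and 14.75 against 12.50 and 14.31 and rose by 1.34 (adjusted p 0.0142), but did not pass with only the CAF and TEC arrays in the fit (adjusted p 0.0579). The CAF values of Col1a2 and Col3a1 lie near the highest value of any probe set on those arrays (14.74 to 14.76), where an array has little room to show a further increase.

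CCAAT, the motif of the nuclear factor Y that is well known from the collagen I promoters, was searched in the same windows on both strands. It was found in 9 of 18 collagen genes with a window (50%), against 41.1% of all genes. The window of Col1a2 (chr6:4505368-4505667, plus strand) is shown as the collagen nearest to the threshold that passed, with CCAAT or its complement ATTGG in capitals.
Col1a2: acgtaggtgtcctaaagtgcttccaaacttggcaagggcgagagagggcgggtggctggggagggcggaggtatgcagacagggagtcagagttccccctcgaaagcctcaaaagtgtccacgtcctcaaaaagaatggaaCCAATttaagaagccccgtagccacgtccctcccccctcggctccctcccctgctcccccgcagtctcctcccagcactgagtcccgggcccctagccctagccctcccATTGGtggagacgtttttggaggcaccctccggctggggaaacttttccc
It held 2 matches.

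The rest of the matrix followed the collagens. Of 31 proteoglycans and matrix glycoproteins 29 were higher in CAF, with a median difference of 2.63. Matn2, a matrilin that links matrix fibres, was 9.76, 9.83 and 9.58 on the CAF arrays and 4.10 and 5.65 on the TEC arrays, and its difference was 4.85 (SE 0.43, adjusted p 1.54e-05). Ogn rose by 4.16, Aspn by 3.96, Thbs2 by 3.77, Fmod by 3.75 and Mfap5 by 3.59. The fibronectin gene Fn1 rose by 1.32. Of 17 genes for collagen processing 15 were higher in CAF. Lox and Loxl1, which cross-link collagen and elastin, rose by 3.08 and 3.54, the lysyl hydroxylase gene Plod2 by 3.22, and Pcolce2, an enhancer of procollagen cleavage, by 4.29. Tgm2, a transglutaminase that macrophages also make, was lower in CAF (-0.96).

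Metalloproteinases were divided. Of 20 genes of the proteinases and their inhibitors 14 were higher in CAF and 3 lower. Mmp2 (3.74), Mmp3 (3.64), Mmp13 (3.39), Mmp14 (2.75) and Mmp11 (2.79) were higher in CAF, as were the inhibitors Timp3 (3.60) and Timp2 (2.56). The genes lower in CAF were Mmp8 (-5.48) and Mmp9 (-3.09), which neutrophils store in granules, and Mmp12 (-2.05), the macrophage elastase. Mmp13, a collagenase, was 10.23, 10.26 and 10.70 on the CAF arrays and 6.86 and 7.16 on the TEC arrays. In this gene both TEC arrays were low, unlike Mmp3, where replicate 2 (11.40) was well above replicate 1 (8.87).

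Contractile genes were higher in CAF in 10 of 18 cases, with 1 lower and 7 that did not pass. Acta2, which encodes the smooth muscle actin of myofibroblasts and of basal mammary cells, was 11.93, 12.12 and 12.08 on the CAF arrays and 10.28 and 10.83 on the TEC arrays. The groups did not overlap, but the control fibroblasts spread from 7.28 to 10.53, and the difference of 1.49 (SE 0.75) had an adjusted p of 0.107. It passed with only the CAF and TEC arrays in the fit (adjusted p 0.00123) and with probe sets that may cross-hybridise left out (0.41, adjusted p 0.0300). Fap, fibroblast activation protein, was 11.76, 11.63 and 11.52 against 7.14 and 9.36 and rose by 3.38, Tagln rose by 2.83 and Myl9 by 2.61. Cnn1, a calponin of mature smooth muscle, lay between 4.59 and 4.97 on all 5 arrays (difference 0.13, 95% interval -0.21 to 0.46). Pdlim7 was the gene lower in CAF (-1.80), and without TEC replicate 1 the lower genes numbered 2.

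Genes of adventitial fibroblasts, the population around vessels, were higher in CAF in 14 of 15 cases, with a median difference of 2.82. Scara5, a ferritin receptor, was 12.76, 12.69 and 12.55 on the CAF arrays and 7.21 and 10.14 on the TEC arrays, a difference of 3.99 (SE 0.67). Clec3b rose by 3.78, Smoc2 by 3.53, Cd34 by 3.36 and Pi16 by 1.69.

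Further genes with great increases stood outside these lists. Agtr2, the type 2 angiotensin receptor, was 8.50, 8.33 and 8.04 on the CAF arrays and 2.93 and 3.80 on the TEC arrays. Both TEC values were below the lower quartile of their arrays, near the floor of the scale, and the fitted difference was 4.93 (SE 0.33, adjusted p 2.81e-06). It was intermediate in control fibroblasts (mean 5.21). The homeobox genes Meox2 and Zfhx4 rose by 4.68 and 4.48, the ephrin receptor Epha3 by 4.42, the prostaglandin E receptor Ptger3 by 4.40, and the growth hormone receptor Ghr by 4.38. The steroid enzymes Akr1c14 and Cyp7b1 rose by 4.67 and 4.35. Tenm3, Dact1, Mme, Srpx2, Itgbl1, Smarca1 and Fbln7 were also among the 20 greatest increases, with differences of 4.21 to 4.33, and TEC replicate 2 was above replicate 1 in all of them. Reg3g, an antimicrobial lectin, was 11.10, 11.02 and 11.74 on the CAF arrays and 6.32 and 7.60 on the TEC arrays and rose by 4.33, with a mean of 5.73 in control fibroblasts.

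The 2 TEC arrays were set against CAF one by one. In 1531 genes the CAF mean was above both by at least 1, in 1479 it was below both by at least 1, and in 8120 genes it was within 1 of both. In 510 genes CAF was higher against TEC replicate 1 only, and in 126 against replicate 2 only. Lower genes were 526 against replicate 1 only and 100 against replicate 2 only. In 2 genes the arrays gave opposite directions. Of the 8364 calls, 7127 were kept in the same direction without TEC replicate 1 and 7523 without replicate 2, and none passed in the opposite direction. Among 288 of the genes described by name that passed, leaving out TEC replicate 1 moved the difference by over 1.5 times in 61 and leaving out replicate 2 in 5. TEC replicate 2 exceeded replicate 1 by at least 1 in 640 genes. The reverse gap was found in 53 genes. Among the 10 genes with the greatest excess on replicate 2 were the immunoglobulin gene Igk (8.95 and 12.65), Ogn (6.05 and 9.67), Aspn (5.69 and 9.16), Ndn (5.62 and 9.06) and Islr (6.28 and 9.62). The CAF values of Ogn, Aspn, Ndn and Islr were above both TEC arrays, and those of Igk were below both. Among the 10 with the greatest excess on replicate 1 were Mpp7 (10.73 and 8.97), Gsap (8.68 and 7.02), Aim2 (7.34 and 5.91) and the antibody gene Ighv14-2 (6.90 and 5.51), and in these the CAF values were below both.

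**Figure D3:**
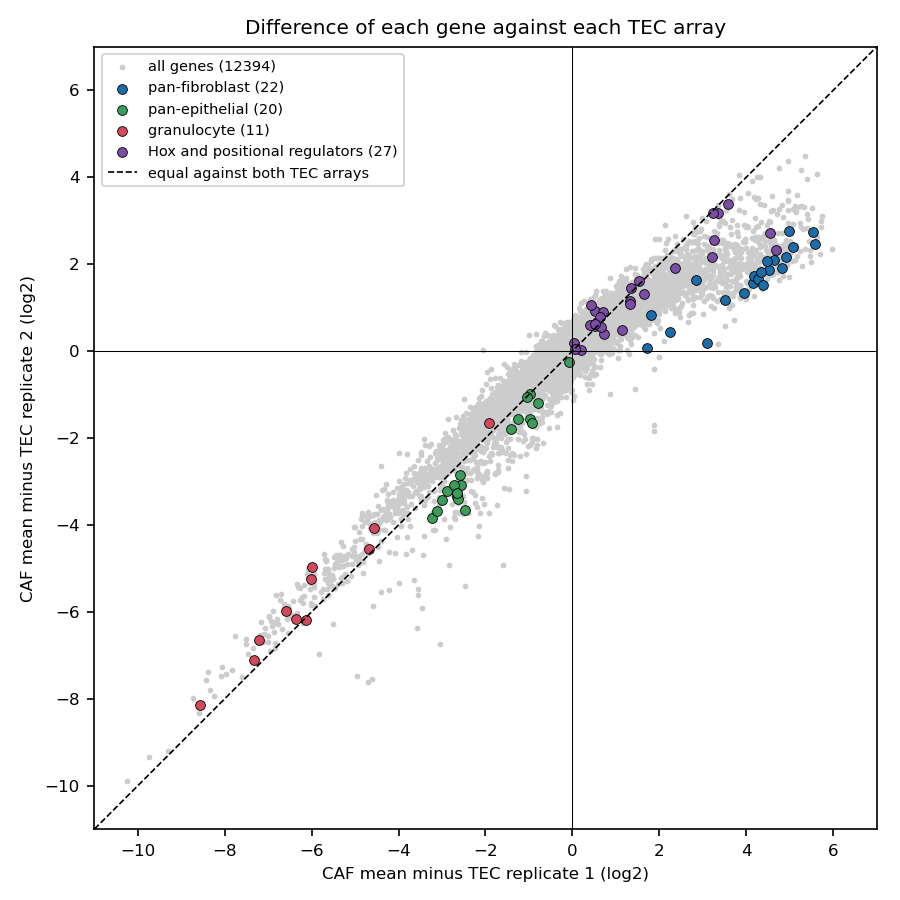
Difference of each of the 12394 genes between the CAF mean and TEC replicate 1 (x axis) and TEC replicate 2 (y axis), log2, with 4 gene lists coloured and a dashed line where both are equal. The pan-fibroblast genes lie below the line (medians 4.31 and 1.70), and the granulocyte genes lie near it (medians -6.14 and -5.98).

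Not all CAF genes took part in the gap between the TEC arrays. Of 708 genes at least 2 higher in CAF, 482 were higher on TEC replicate 2 than on replicate 1 by at least 1, and 65 were no more than 0.25 above replicate 1 or below it. In 47 of those 65 both TEC values were below the lower quartile of their array, where small differences may not be seen. Examples, picked after their values were seen, were the tendon gene Tnmd (3.85 and 4.09 on the TEC arrays, 8.52, 8.35 and 7.42 on the CAF arrays), the hormone gene Fgf23 (4.15 and 4.35 against 8.60, 8.23 and 8.0), and the pericyte regulator Rgs5 (6.05 and 5.83 against 9.55, 9.98 and 10.11). Fgf23 had a mean of 5.02 in control fibroblasts.

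Cytokines of inflammatory fibroblasts were higher in CAF in 20 of 24 cases, with a median difference of 1.72. Il6 was 14.19, 14.18 and 14.21 on the CAF arrays and 11.51 and 13.36 on the TEC arrays, a difference of 1.76 (SE 0.41, adjusted p 0.00396). The hyaluronan synthase genes Has2 and Has1 rose by 3.75 and 3.17, and Ptgs2, the inducible cyclooxygenase, by 1.05. Of 28 chemokine genes 11 were higher and 14 lower. The chemokines higher in CAF included Ccl11 (3.75), which attracts eosinophils, Cxcl14 (3.09), Cxcl5 (3.03), Cxcl12 (2.68), which retains cells that carry Cxcr4, and Ccl2 (1.81), which recruits monocytes. Those lower in CAF included Ccl3 (-7.66), Ccl6 (-6.93), Ccl4 (-5.07), Ccl22 (-4.64) and Ccl5 (-4.59), which myeloid and T cells make. Cxcl2, which attracts neutrophils, was 14.13, 14.07 and 14.02 on the CAF arrays and 14.53 and 14.35 on the TEC arrays.

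Complement genes were divided as well. Of 16 genes 10 were higher in CAF and 6 lower. The proteases C1ra (3.66) and C1s1 (3.33), C2 (3.24), Cfb (2.52) and their inhibitor Serping1 (2.68) were higher in CAF, whereas the C1q chains, the anaphylatoxin receptors C5ar1 (-4.44) and C3ar1 (-3.11) and properdin, Cfp (-5.47), were lower. Interferon-induced genes were lower in CAF in 13 of 21 cases and higher in none, with a median difference of -0.71. Mx1 fell by 3.34 and Rsad2 by 2.61. Without TEC replicate 2 the count higher in CAF was 2.

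**Figure D4:**
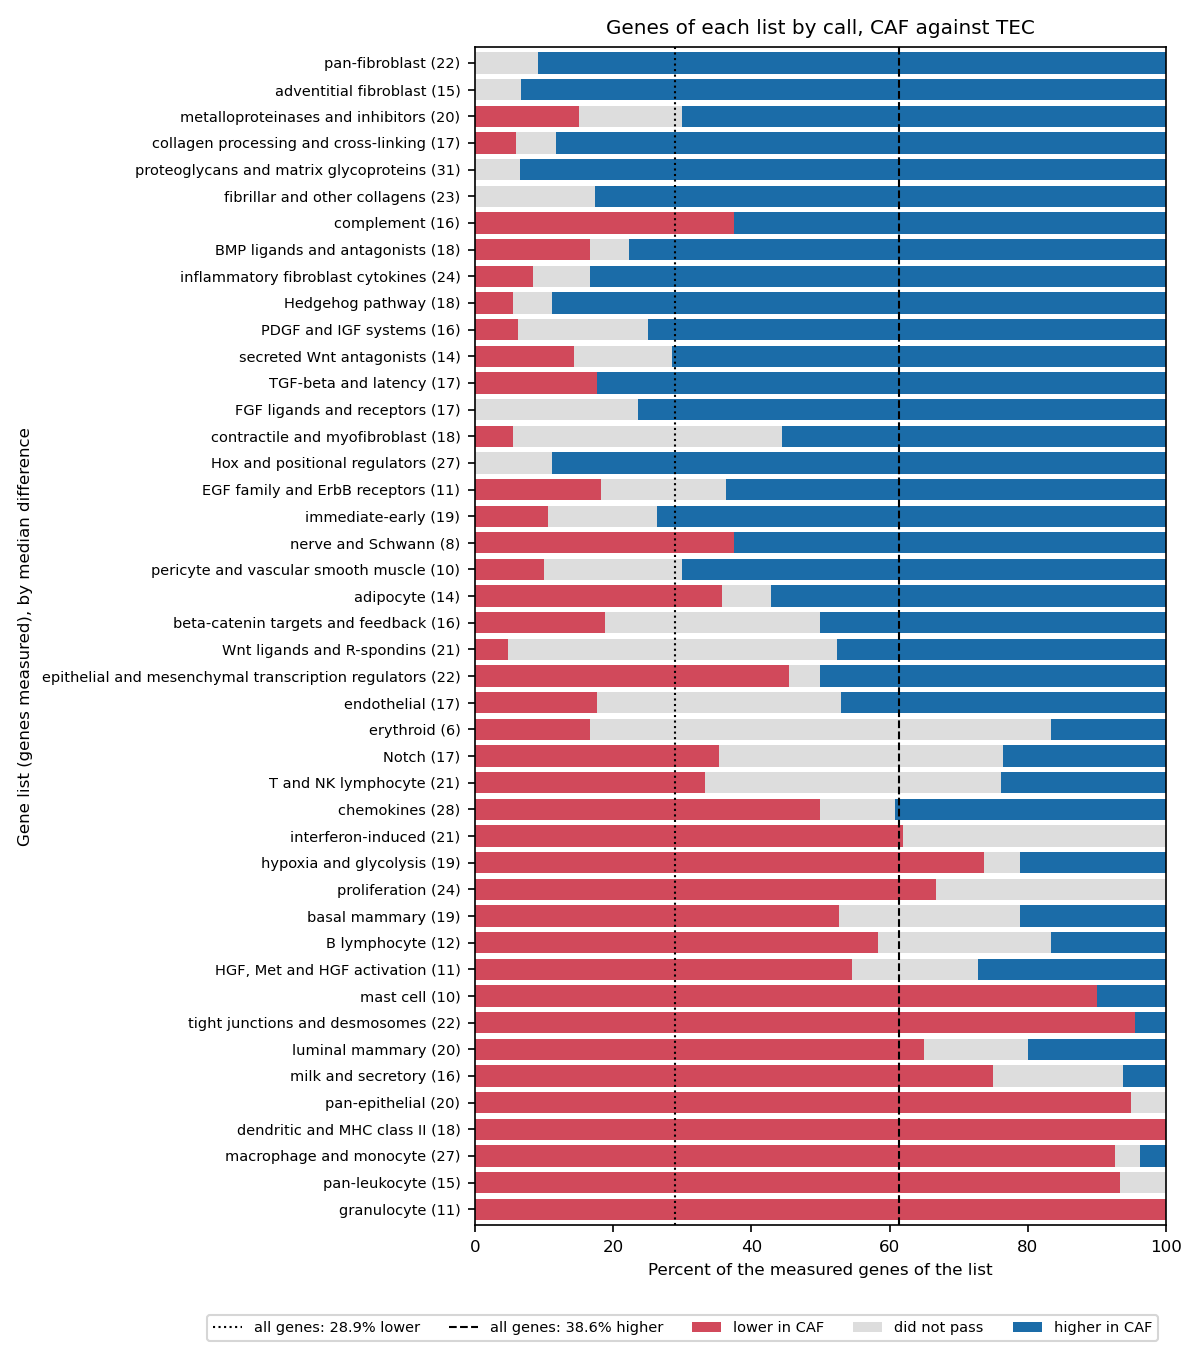
Percent of the measured genes (x axis) of 44 gene lists (y axis, number of genes in brackets) that were lower in CAF, did not pass or were higher in CAF, in order of the median difference, with the shares over all 12394 genes as dashed and dotted lines. The fibroblast and matrix lists stand at the top and the granulocyte list (11 of 11 lower) at the bottom.

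The receiving side of the Hedgehog pathway was higher in CAF. Hedgehog ligands bind Ptch1, which releases Smo to activate the Gli factors, and Gas1, Boc and Cdon act as coreceptors. Of 18 measured genes 16 were higher in CAF and 1 lower, with a median difference of 1.62. Gas1 was 12.15, 12.13 and 11.75 on the CAF arrays and 6.75 and 8.67 on the TEC arrays and rose by 4.30 (SE 0.52), Boc rose by 2.38 and Cdon by 1.24. Gli1, a transcriptional target of the pathway, was 8.31, 8.58 and 8.68 on the CAF arrays and 5.60 and 6.60 on the TEC arrays. It rose by 2.42 (SE 0.25, adjusted p 3.27e-05), with Gli2 (2.84), Smo (2.54), Ptch1 (2.33) and Hhip (2.24). The groups did not overlap in any of these genes, which was also so in most genes measured. Of the ligands, Dhh rose by 0.67, and Shh and Ihh lay below 5 on all 5 arrays. Their differences of -0.28 and 0.32 passed (adjusted p 0.0312 and 0.0339), but each lost its call when CAF replicate 1, CAF replicate 3 or TEC replicate 2 was left out (adjusted p 0.0946, 0.0737 and 0.128 for Shh, and 0.0921, 0.0662 and 0.162 for Ihh), and Ihh also without CAF replicate 2 (0.0599). When any 1 of the first 3 arrays named was left out, no gene of the list was lower in CAF.

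Secreted inhibitors of Wnt ligands were mostly higher in CAF. Of 14 such genes 10 were higher in CAF and 2 lower. Sfrp4, a frizzled-related protein that binds Wnt, was 12.25, 12.24 and 12.26 on the CAF arrays and 7.71 and 9.25 on the TEC arrays and rose by 3.77 (SE 0.34). Dkk3 rose by 3.89, Sfrp2 by 3.60, Dkk2 by 3.23 and Sfrp1 by 3.12. Frzb was 7.86, 7.95 and 7.64 on the CAF arrays and 4.46 on both TEC arrays, a difference of 3.35 (SE 0.16), and had a mean of 5.23 in control fibroblasts. Wif1 was 9.09, 9.35 and 9.08 against 7.06 and 8.94, and TEC replicate 2 was close to CAF. Its difference of 1.18 did not pass (adjusted p 0.0895), but did without TEC replicate 2 (2.11, adjusted p 0.00587).

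Among the Wnt ligands themselves, fewer passed. Of 21 ligands and R-spondins 10 were higher in CAF, 1 was lower and 10 did not pass, and without TEC replicate 1 or without replicate 2 the lower genes numbered 2. Wnt2 was 9.28, 9.25 and 9.13 on the CAF arrays and 5.52 and 7.89 on the TEC arrays and rose by 2.52, and Wnt16 rose by 2.38. Wnt5a rose by 1.72 but not without TEC replicate 1 (0.99, adjusted p 0.0641). Wnt10a, a ligand of epithelial cells, was 4.46, 4.43 and 4.43 on the CAF arrays and 6.87 and 6.76 on the TEC arrays and fell by 2.37 (SE 0.20).

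Targets of beta-catenin showed no common direction. Of 16 genes 8 were higher in CAF and 3 lower, and the counts were 5 and 5 without TEC replicate 1, while 1 was lower without CAF replicate 3 or without TEC replicate 2. Lgr5, a receptor of R-spondins, was 7.38, 7.20 and 6.93 on the CAF arrays and 5.05 and 5.39 on the TEC arrays and rose by 1.94 (SE 0.19). Ccn5 rose by 3.10. Axin2, a feedback inhibitor and common readout of Wnt signalling, was 6.53, 6.64 and 6.54 against 7.14 and 7.39. It differed by -0.70 (adjusted p 0.0205), and the call was lost without CAF replicate 1 (-0.68, adjusted p 0.0527), CAF replicate 3 (-0.68, 0.0503) or TEC replicate 2 (-0.57, 0.106). Rnf43, another feedback inhibitor, fell by 1.34, and Lef1, a partner of beta-catenin, did not pass (0.02).

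The HGF and Met list had few genes higher in CAF, 3 of 11, and 6 lower. Met was 4.75, 4.94 and 5.10 on the CAF arrays and 5.11 and 5.44 on the TEC arrays, a difference of -0.34 (95% interval -0.83 to 0.14, adjusted p 0.183). Hgf, the ligand named in the genotype of these mice, was 7.71, 7.50 and 7.49 against 8.04 and 7.50, a difference of -0.20 (95% interval -0.59 to 0.19), and passed without TEC replicate 2 (-0.47, adjusted p 0.0319). Its other probe set differed by 0.86 and passed as higher in CAF when every probe set was tested, so the probe sets of Hgf disagree. Its mean on the CSC arrays was 10.47. The lower genes were St14 (-2.96), the epithelial protease matriptase, its inhibitors Spint1 (-1.27) and Spint2 (-2.71), Mst1, and the adaptors Gab1 (-1.53) and Grb2 (-1.96). Hgfac, the HGF activator, was higher in CAF by 1.81.

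Fibroblast growth factors were higher in CAF in 13 of 17 cases and lower in none. Fgf7 and Fgf10, mesenchymal ligands for epithelium, rose by 3.51 and 3.12. Fgf10 was 6.84, 6.89 and 6.85 on the CAF arrays and 3.48 and 3.99 on the TEC arrays. Fgf2 rose by 2.51, Fgf18 by 2.78 and the receptor Fgfr1 by 2.03. Of 16 genes of the PDGF and IGF systems 12 were higher in CAF: Igf1 rose by 3.22, Igfbp3 by 3.69 and Pdgfd by 3.42. Igf1r, the receptor for Igf1, was 7.78, 7.72 and 7.73 on the CAF arrays and 9.90 and 8.82 on the TEC arrays and fell by 1.62 (SE 0.25), although its other probe set differed by 0.34 in the opposite direction. In the EGF family 7 of 11 genes were higher in CAF and 2 lower. Egfr rose by 3.21 and Erbb3 fell by 2.49, both receptors of the family. The ligands Ereg and Hbegf rose by 3.41 and 1.72.

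**Figure D5:**
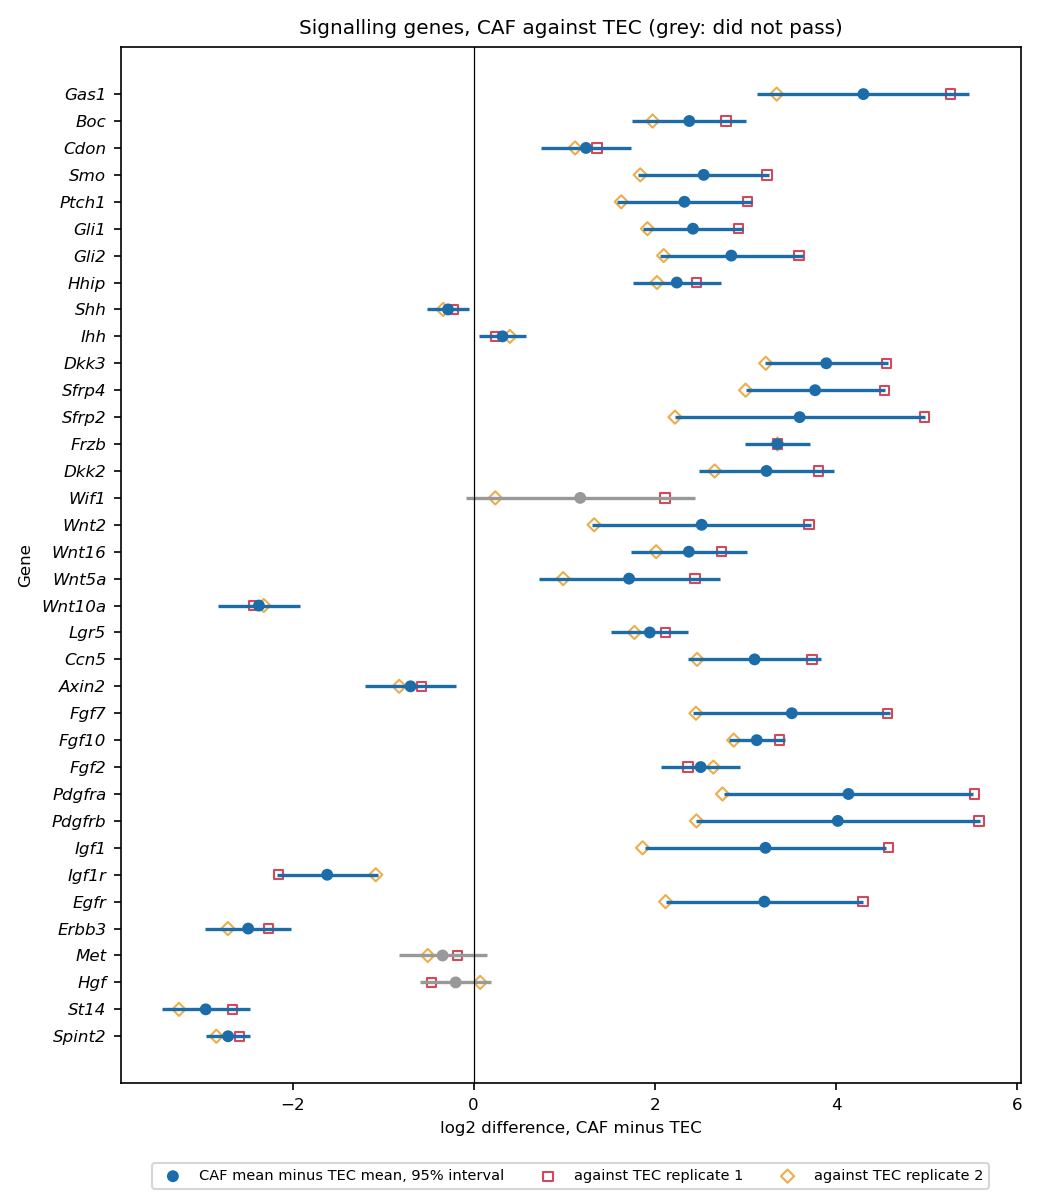
Log2 difference, CAF minus TEC (x axis), of 36 signalling genes (y axis) with its 95% interval, blue where limma's adjusted p was under 0.05 and grey where not, and the difference against each TEC array as open symbols. Hedgehog receivers, Wnt antagonists and FGF ligands lie to the right, and Erbb3 (-2.49), St14 (-2.96) and Spint2 (-2.71) to the left.

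TGF-beta genes were higher in CAF in 14 of 17 cases and lower in 3. The latent binding proteins Ltbp1, Ltbp2 and Ltbp3, which hold the ligand in the matrix, rose by 3.0, 3.11 and 2.48, Tgfb2 by 2.33, Tgfb3 by 1.42 and the receptor Tgfbr2 by 2.23. Tgfb1 was 6.75, 6.60 and 6.72 on the CAF arrays and 8.12 and 7.70 on the TEC arrays and fell by 1.22 (SE 0.15), and Tgfbi fell by 3.90. Of 18 BMP genes 14 were higher and 3 lower. Gdf10 rose by 3.45, the antagonists Chrdl1, Fst, Chrd and Grem1 by 2.75, 2.52, 1.66 and 1.59, and among the inhibitors of differentiation Id3 and Id4 rose by 2.31 and 2.52 while Id1 and Id2 fell by 1.92 and 2.22. Of 17 Notch genes 4 were higher in CAF, 6 lower and 7 did not pass. The receptors Notch1 and Notch2 fell by 2.50 and 1.17 (the other probe set of Notch2 differed by 0.50) and the modifier Lfng by 2.87, and the ligand Jag1 and the target Hes1 rose by 1.35 and 1.54.

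Positional regulators were higher in CAF in 24 of 27 cases and lower in none, with a median difference of 0.81. Hox genes encode position along the body axis and stay on in fibroblasts of the adult. Hoxd8 was 8.86, 8.83 and 8.93 on the CAF arrays and 5.28 and 5.48 on the TEC arrays, a difference of 3.49 (SE 0.11, adjusted p 5.38e-08). Hoxc8 rose by 3.51, Tbx15 by 3.63, Hoxa5 by 3.27, Hoxa10 by 3.21 and Tbx3 by 2.90. In Hoxd8 the gap between the TEC arrays was 0.20. In Hoxa5 and Hoxa10 both TEC values were below the lower quartile of their arrays, where a gap may not be seen. Hoxc8 read 4.11 and 6.48 and Tbx15 5.26 and 7.07. Hoxa7, 1 of the 3 that did not pass, was 6.97, 6.90 and 6.79 on the CAF arrays and 6.85 and 6.71 on the TEC arrays.

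Lists of other stromal cells had small median differences, such as 0.48 for pericyte and 0.24 for endothelial genes, but single genes differed by far more. Of 10 pericyte genes 7 were higher in CAF and 1 lower, led by Rgs5 (3.94), Abcc9 (2.84) and Kcnj8 (2.46). Of 17 endothelial genes 8 were higher and 3 lower (1 without TEC replicate 1). Pecam1, which encodes CD31 and is also carried by leukocytes, was 4.94, 4.84 and 4.96 on the CAF arrays and 6.36 and 5.44 on the TEC arrays, a difference of -0.99 that did not pass without TEC replicate 1 (-0.53, adjusted p 0.120). Cdh5, which encodes VE-cadherin, lay between 5.30 and 6.45 on all 5 arrays, and its difference of 0.75 (adjusted p 0.0483) was lost without any of the CAF arrays or TEC replicate 1 (adjusted p 0.0803 to 0.296). Plvap rose by 2.43 and Tek by 4.17. Of 14 adipocyte genes 8 were higher and 5 lower: Fabp4 and Lpl rose by 2.85 and 2.33, Dgat2 and Lipe fell by 3.92 and 2.96, and Adipoq stayed at or below 5.0 on all 5 arrays. Of 8 nerve and Schwann cell genes 5 were higher in CAF and 3 lower, and of 6 erythroid genes 1 was higher and 1 lower.

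Proliferation genes were lower in CAF in 16 of 24 cases and higher in none, with a median difference of -1.0. Without TEC replicate 1 the lower genes numbered 8 and 1 gene was higher. The control fibroblasts, which share the variance estimate, spread from 5.84 to 7.39 in the median of this list. The helicase genes Mcm5 and Mcm7 fell by 2.03 and 1.83. Mki67 was 7.99, 8.16 and 8.30 on the CAF arrays and 10.02 and 9.83 on the TEC arrays, a difference of -1.77 (adjusted p 0.0175) that did not pass without TEC replicate 1 (-1.67, adjusted p 0.0726). Of 19 genes of hypoxia and glycolysis 14 were lower in CAF: Egln3, an oxygen sensor, was 4.47, 4.31 and 4.64 against 10.56 and 9.48 and fell by 5.55, the lactate exporter gene Slc16a3 by 3.13, Pkm by 1.98 and Gapdh by 1.41. Adm and Hk2 rose by 2.88 and 1.65. Of 19 immediate-early genes, which cell handling can induce, 14 were higher in CAF and 2 lower, among them Egr1 (1.86), Fosb (1.93), Klf4 (1.79), Jun (1.22) and Fos (0.68). Fos was 14.24, 14.26 and 14.22 on the CAF arrays and 13.47 and 13.65 on the TEC arrays.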

How the data were processed

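Affymetrix mouse arrays were hybridised from sorted mammary cells, with 3 CAF, 2 TEC, 3 COF and 2 CSC samples. The deposited values are log2 intensities from RMA (named in the submitters' processing notes). That method corrects background, makes the value distributions of the arrays alike and summarises probes, so a shift shared by most genes would not be seen. Arrays hold no read depth, and their number limits the precision.

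From these values, 1 probe set per gene was kept (20393 probe sets carried 1 symbol, 691 several and 1606 none). All 10 arrays were fitted by group with limma 3.58.1 in R 4.3.3 (lmFit and eBayes), and the contrast CAF minus TEC was adjusted by Benjamini-Hochberg over 12394 genes, with 6 residual degrees of freedom. Scripts were tested on simulated data. Fits with only the 5 CAF and TEC arrays, other variance models, other normalizations, other choices of probe set and without each CAF or TEC array in turn were also run; no COF or CSC array was left out.

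Genes were named where they had the 20 greatest increases or decreases without overlap of the arrays, the smallest adjusted p of their list (up to 6), the greatest gaps between the TEC arrays, or stood on a fixed list. Further members of the lists were named after their values were seen. The comparison and its 44 gene lists (717 distinct measured genes of 784) were chosen with earlier results of these data known. The hair follicle, cornified epidermis and immunoglobulin lists were added after seeing the values. Promoter windows came from RefSeq. The replicate numbers do not pair the samples by any label.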

Additional observations from a re-analysis of the deposited data

How the results depend on the processing

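Of 301 named genes, 279 kept their direction and their side of the threshold under every alternative that measured them. Lor, Ivl, Casp14, Lce1a1, Sfn, Cma1 and Mcpt4 were not among the 301. The number of genes that passed, 8364, lay between 6182 and 8414 under the other fits, and between 7432 and 7961 when 1 CAF or TEC array was left out (4292 to 4430 higher and 3020 to 3641 lower). It was 14935 when every probe set was tested (8706 higher and 6229 lower, of 22690), and 3586 when a difference of at least 1 was also asked for (1819 higher and 1767 lower). Hgf, Lef1 and Zeb2, which did not pass, changed sign: Hgf was 0.33 with the mean of all probe sets and -0.47 to 0.072 when 1 array was left out, Lef1 was -0.079 after a second quantile normalization and -0.12 to 0.17 when 1 array was left out, and Zeb2 was -0.19 to 0.091 when 1 array was left out. The cause was not tested. With the replicate number as a block, 7909 genes passed (4541 higher and 3368 lower), Lef1 was -0.0029, and Shh and Cdh5 did not pass (adjusted p 0.0733 and 0.0549). The deviations of same-numbered arrays correlated at -0.02 (CAF 1 with TEC 1) and 0.09 (CAF 2 with TEC 2), so the block was not used. Col1a1 and Col3a1 passed with array weights (adjusted p 0.0426 and 0.0318) and with the mean of all probe sets (2.08 and 1.74). The array weights were 0.34 for the TEC arrays and 2.18 for the CAF arrays, and with them 6767 genes passed. The calls of Adipoq, Cdh5, Cpa3, Ihh, Marco, Mki67 and Shh were then lost (adjusted p 0.0520 to 0.145). With these weights 9 proliferation genes were lower in CAF, and 6 Wnt ligands and R-spondins and 5 endothelial genes were higher. Single probe sets of Hgf, Igf1r, Ms4a6d, Ndn, Notch2 and Trp63 passed in the direction opposite to the one described. Only 2 TEC arrays, which differ from each other, limit the comparison, and values near the top of the scale or below the lower quartile of an array understate differences.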

Other observations

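Genes of the hair follicle and of cornified epidermis, which a mammary sort is not usually examined for, were read on the TEC arrays. Both lists were written after such genes had been seen among the lower ones. Of 28 measured hair follicle genes 18 were lower in CAF, 1 was higher and 9 did not pass, with a median difference of -0.88, and TEC replicate 2 was above replicate 1 in 25. The hair keratin Krt25 was 5.21, 5.75 and 5.64 on the CAF arrays and 10.12 and 11.40 on the TEC arrays, with a mean of 6.66 on the CSC arrays. Trichohyalin, Tchh, a protein of the inner root sheath, was 6.43, 6.79 and 6.69 against 10.87 and 12.14 and fell by 4.87, and Krt27 fell by 4.46. Krt71, another inner root sheath keratin, did not pass (0.13, adjusted p 0.424). Of 27 measured genes of cornified epidermis 21 were lower in CAF, 1 was higher and 5 did not pass. The median difference was -1.99, and TEC replicate 2 was above replicate 1 in 21. Asprv1, a skin protease, was 6.88, 7.05 and 7.0 against 11.95 and 11.78 and fell by 4.89, with TEC replicate 1 the higher. Sprr1b, at 7.38 and 8.29 on the TEC arrays, fell by 3.41. Lor (-0.02), Ivl (0.12) and Casp14 (0.26), also of this list, did not pass, and Lce1a1 was the gene higher in CAF (0.56). The mean on the CSC arrays was 9.28 for Asprv1 and 6.93 for Sprr1b, below both TEC arrays. Members were divided in this, since Sfn had a CSC mean of 10.07 against 7.93 and 9.18 on the TEC arrays. The part of skin RNA in the epithelial and keratin differences was not tested.

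Immunoglobulin genes, a set also drawn up after their values were seen, were lower in CAF in 20 of 21 cases, with a median difference of -4.04. TEC replicate 2 was above replicate 1 in 19 of them, in contrast to the pan-leukocyte list, where it was above in 1 of 15. Igk was 5.81, 5.92 and 5.98 on the CAF arrays and 8.95 and 12.65 on the TEC arrays. The heavy chain gene Ighm was 7.97, 7.92 and 7.82 against 11.46 and 13.51 and fell by 4.58. Probe sets for antibody gene segments can bind related segments, so these genes are not independent. The cause of the gap between the TEC arrays was not tested.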
